A study of Homo sapiens with 12 samples.

Results

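Transcripts of 5 genes of redox, selenium and iron metabolism (GPX4, SELENOP, CCDC152, ACO1 and TALDO1) were followed in 12 RNA-seq libraries made from HaCaT, an immortal human keratinocyte line. The 5 are among 61498 entries of the deposited count tables. They were chosen by their place in chromosome stretches where gene names and read levels match, a check that reads the levels themselves, and were proposed with the differences of GPX4, ACO1 and CCDC152 from the control hairpin already known. For that reason the levels and the differences between hairpins below are descriptions without a test. All 5 members passed the filter on low counts (at least 1 CPM, the count scaled to a library total of 1000000, in at least 3 libraries), as did 10800 entries in all.

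The cells carried 1 of 4 short hairpin RNAs, and each such derivative is treated here as a single line: shControl (labelled WT), shMLL1 (labelled MLL1 knockdown; gene KMT2A, a histone H3 lysine 4 methyltransferase), shUTX (gene KDM6A, a histone H3 lysine 27 demethylase) and shNRF2 (gene NFE2L2, the transcription factor that induces antioxidant genes). Every derivative was sequenced untreated, after 24 h with 100 µM H2O2 and after 24 h with 25 µg/mL CeO2 NPs (cerium oxide nanoparticles). Each of the 12 combinations has 1 library, so the spread comes from the libraries of the other treatments or derivatives. Whether libraries came from separate cultures is not stated, and p-values measure only the spread among these libraries. In RNA from a whole culture, fewer cells that express a gene and less RNA per cell cannot be told apart.

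GPX4 is the selenium-containing peroxidase that reduces lipid hydroperoxides in membranes at the expense of glutathione, and its loss leads to ferroptosis, an iron-dependent form of cell death. SELENOP encodes a secreted protein rich in selenocysteine that carries selenium between tissues, and CCDC152 is a coiled-coil gene on the opposite strand whose end overlaps that of SELENOP. ACO1 encodes cytosolic aconitase, which turns into the iron regulatory protein IRP1 when it loses its iron-sulfur cluster and then binds mRNAs of iron metabolism. TALDO1 encodes transaldolase of the non-oxidative pentose phosphate pathway, the route connected to NADPH supply, and is a known NRF2 target.

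Positions are those of GENCODE 29 on GRCh38. GPX4 lies at chr19:1103926-1106791 on the plus strand (ENSG00000167468), TALDO1 at chr11:747329-765024, plus (ENSG00000177156), and ACO1 at chr9:32384603-32454769, plus (ENSG00000122729). SELENOP lies at chr5:42799880-42887392 on the minus strand (ENSG00000250722) and CCDC152 at chr5:42756801-42802360 on the plus strand (ENSG00000198865). The last pair shares 2481 bp, of which 1452 bp are exonic in both, 25.5% of the exon length of SELENOP and 42.3% of that of CCDC152. The sources used here do not give whether reads were counted by strand, so reads from the shared stretch could have been lost or assigned to either gene, and both are uncertain.

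Sequence before the start sites is shown because NRF2, which binds antioxidant response elements, was silenced in 1 of the lines. The stretches come from RefSeq (GRCh38.p14), run 5′ to 3′ on the gene's strand and leave out annotated exons except for SELENOP. The 250 bases before each start were searched on both strands for the antioxidant response element core TGACNNNGC and its form TGAGNNNGC, for the AP-1 site TGACTCA and for TGACGTC, which is part of the cAMP response element. These motifs were chosen after the promoters had been seen. Capitals mark the matches. The stretches are chr19:1103806-1103925 (plus) for GPX4, chr5:42811972-42812001 (minus) for SELENOP, chr5:42756568-42756687 (plus) for CCDC152, chr9:32384483-32384602 (plus) for ACO1 and chr11:747214-747328 (plus) for TALDO1; the 30 bases of SELENOP lie in an exon of a longer annotated transcript.
GPX4: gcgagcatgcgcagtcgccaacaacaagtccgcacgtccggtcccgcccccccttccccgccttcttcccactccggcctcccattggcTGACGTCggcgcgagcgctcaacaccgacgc
SELENOP: tgctctgcttGCAAGGTCActgcaagaatg
CCDC152: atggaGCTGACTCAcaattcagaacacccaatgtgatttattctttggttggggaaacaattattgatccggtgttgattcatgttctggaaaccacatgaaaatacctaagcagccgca
ACO1: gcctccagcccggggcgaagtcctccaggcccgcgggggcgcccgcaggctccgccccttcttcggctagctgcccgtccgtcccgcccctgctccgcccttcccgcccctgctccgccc
TALDO1: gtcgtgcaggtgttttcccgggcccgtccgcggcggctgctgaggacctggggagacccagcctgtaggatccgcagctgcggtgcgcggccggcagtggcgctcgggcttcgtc

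The core TGACNNNGC was found in the window of SELENOP alone, on the reverse strand at -99 to -91 from the RefSeq start, and 10.9% of 35116 promoters of the same length hold it. The form TGAGNNNGC occurred only in CCDC152, at -245 to -237 on the reverse strand, and 14.8% of promoters hold it. That match overlaps an AP-1 site at -243 to -237, which 4.20% of promoters hold. GPX4, searched before 3 starts, holds TGACGTC at -99 to -93 from the first start and at -162 to -156 from the second. The window of the third start does not hold it. The share of promoters with TGACGTC is 3.12%, counted per promoter and not per gene with 3 windows. The windows of GPX4, ACO1 and TALDO1 hold neither form of the antioxidant core. A match describes letters only.

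Total counts ran from 5388335 to 7670446 per library. In a panel of 594 housekeeping genes, 186 entries held no read in any library, so names were read only in 4 stretches where 26 of 26 panel genes had at least 30 CPM, against 101 of 568 elsewhere. The panel chose these stretches, whose least filled had a panel median of 324 CPM, while 1 more candidate with 99.5 CPM missed the limit of 150 CPM. Among coding genes that the panel did not use, 66.1% of 437 inside and 33.0% of 18809 outside had at least 1 CPM. Panel genes near the members were POLR2E (725 CPM) for GPX4, and PSMD13 (1278 CPM) and RPLP2 (1865 CPM) for TALDO1. For ACO1 NDUFB6 (132 CPM) lay 98230 bp away on one side. RPS6 (3567 CPM), the nearest panel gene on its other side, lay 13004349 bp away. Around the overlapping pair the panel genes were RPL37 (918 CPM) and PAIP1 (458 CPM), 1921466 and 638875 bp away. That these were filled was fixed by the choice of stretches. The nearest entries past the filter were POLR2E and SBNO2 (397 CPM) for GPX4, and EPS8L2 (420 CPM) and GATD1 (297 CPM) for TALDO1. They were thinner for ACO1 (RBMXP2 with 4.25 CPM, 1694331 bp away, and RIGI with 44.6 CPM). For the pair they were thin as well (SERBP1P6 with 5.62 CPM and ANXA2R-OT1 with 10.5 CPM). The entries of the silenced genes lie outside those stretches: KMT2A had 32.0 to 99.7 CPM in shMLL1, 464 to 494 CPM in shControl and 291 to 573 CPM in the other lines, KDM6A had 0 to 1 count in shUTX and 5 to 6 counts in shControl, and NFE2L2 had no count in shNRF2 and 1 to 16 counts in shControl. KDM6A and NFE2L2 are too low to check the labels. Of 18 keratinocyte markers only AQP3 (mean 271 CPM) and TINCR (32.6 CPM) lie in readable stretches. Among all 18, 7 averaged at least 1 CPM, while 6 held no count in any library, KRT5 among them. No fibroblast marker of 6, endothelial marker of 3 or leukocyte marker of 3 averaged 1 CPM. Of 5 melanocyte markers MLANA did, with 1.44 CPM. Apart from AQP3 and TINCR, all these markers lie outside the readable stretches, where an empty entry does not show absence.

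Per kilobase of exon, TALDO1 was the highest of the 5 members with 432 ± 50.1 CPM per kb (SD over the 12 libraries), followed by GPX4 with 362 ± 108. They ranked 12 and 14 of the 320 coding genes of the readable stretches that passed the filter on low counts. ACO1 reached 15.5 ± 4.56 CPM per kb, CCDC152 4.97 ± 2.36 and SELENOP 0.372 ± 0.341. SELENOP varied most, with a coefficient of variation of 91.7% and counts of 2 to 47 per library, and TALDO1 least, with 11.6%. The median over the same 320 coding genes was 18.2%.

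**Figure D1:**
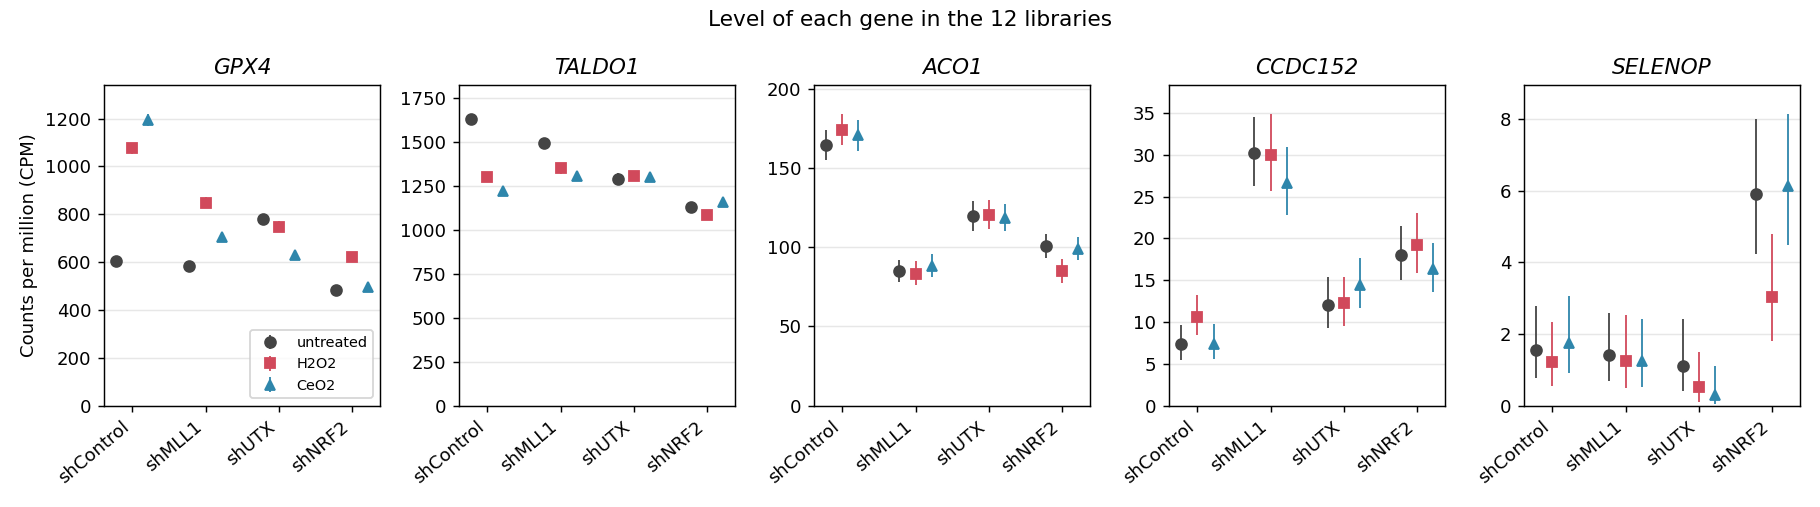
Level of each gene in CPM (vertical axes, from 0, each panel on its own scale) in the 12 libraries, grouped by hairpin on the horizontal axis, with colour and marker giving the treatment and bars the exact 95% interval for counting error only. ACO1 was above 164 CPM in every shControl library and at most 121 CPM in the others, CCDC152 was highest in shMLL1, SELENOP in shNRF2, and GPX4 in the exposed shControl libraries.

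The peroxidase GPX4 was most abundant in the shControl cells after exposure and least in shNRF2 cells. Its level was 604 CPM in untreated shControl cells, 1075 CPM with H2O2 and 1193 CPM with CeO2. It was 585, 849 and 706 CPM in shMLL1 cells in the same order of treatments. In shUTX cells it was 778, 747 and 629 CPM, and in shNRF2 cells 483, 619.5 and 498 CPM. Untreated, shUTX was the highest of the 4 derivatives. With either agent shControl was the highest, so the place of shUTX relative to shControl turned between untreated and exposed cells.

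By derivative, GPX4 averaged 957 ± 312 CPM in shControl, 718 ± 79.0 in shUTX, 713 ± 132 in shMLL1 and 533 ± 74.9 in shNRF2 (SD, n = 3 treatments each). The ranges of neighbours in that order overlapped at every step. The fitted log2 differences from shControl were -0.43 ± 0.14 (SE) for shMLL1, -0.34 ± 0.14 for shUTX and -0.86 ± 0.15 for shNRF2. These values average over the treatments, and for shUTX over the change of order just described. They leaned on single shControl libraries: without untreated shControl they were -0.64, -0.56 and -1.06 in the same order, and without CeO2-exposed shControl -0.22, -0.13 and -0.64. Without untreated shUTX the value of that line was -0.56, without CeO2-exposed shUTX -0.23, and with the trend in transcript length described below removed it was -0.18. The difference of shNRF2 from shUTX was -0.51 ± 0.14 (-0.30 without untreated shUTX), and that of shUTX from shMLL1 was 0.09 ± 0.14 (-0.12 without the same library, and 0.24 with the trend removed).

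Ratios of exposed to untreated level use plain totals, without the TMM scaling of the fits. The TMM factor was 0.914 in untreated shControl, 1.02 with H2O2 and 1.04 with CeO2. On that scale the shControl ratios would be lower, a shift that the counting intervals do not cover. Within shControl cells the GPX4 level was 1.78 times the untreated one with H2O2 (95% interval for counting error 1.72 to 1.85) and 1.98 times with CeO2 (1.90 to 2.05). In shMLL1 cells the ratios were 1.45 (1.39 to 1.51) and 1.21 (1.16 to 1.26). In shUTX cells they were 0.960 (0.920 to 1.00) and 0.808 (0.773 to 0.843), and in shNRF2 cells 1.28 (1.22 to 1.34) and 1.03 (0.983 to 1.08). The ratio was thus above 1 for both agents in shControl and shMLL1, below 1 for both in shUTX, and close to 1 for CeO2 in shNRF2. Across the 4 derivatives neither exposure passed the threshold for GPX4: H2O2 gave a log2 change of 0.34 ± 0.13 (adjusted p = 0.185, higher in 3 of 4 derivatives) and CeO2 0.17 ± 0.13 (adjusted p = 0.483, higher in 3 of 4). Without untreated shControl the changes were 0.18 and 0.0059. The CeO2 change was 0.016 without CeO2-exposed shControl, 0.32 without untreated shUTX and 0.26 without CeO2-exposed shUTX, and with the trend in transcript length removed the changes were 0.51 and 0.35. None of these passed the threshold.

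The test of a changed response asked whether the mean log2 response to both agents in a silenced line differed from that in shControl. It is exploratory, leaves 3 residual degrees of freedom and rests in every case on the single untreated shControl library. The model fits each untreated library exactly, so the spread behind its p-values comes from the exposed libraries alone. Variation between untreated libraries does not enter these p-values. For GPX4 the response differed by -0.93 ± 0.15 in shUTX (log2, edgeR adjusted p = 0.000419) and by -0.54 ± 0.15 in shNRF2 (adjusted p = 0.0152). In shMLL1 the difference was -0.41 ± 0.15 and missed the threshold (adjusted p = 0.165). Without the CeO2 library of shNRF2 the call in that line was lost (-0.44, edgeR adjusted p = 0.0751), and without that of shControl the value was -0.34 (adjusted p = 0.0241). In shMLL1 the response passed the threshold without the H2O2 library of shControl (-0.60, adjusted p = 0.000655), and was -0.21 without its CeO2 library (adjusted p = 0.319). Over all entries 0.648% were called in shMLL1, 14.4% in shUTX and 16.6% in shNRF2, and among the 412 tested entries of the readable stretches 1.70%, 22.8% and 27.2%. The median log2 difference of those 412 entries was 0.137 in shMLL1, 0.232 in shUTX and 0.225 in shNRF2. The 2 of 5 members called in shUTX and in shNRF2 (GPX4 and TALDO1) stand against that background.

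**Figure D2:**
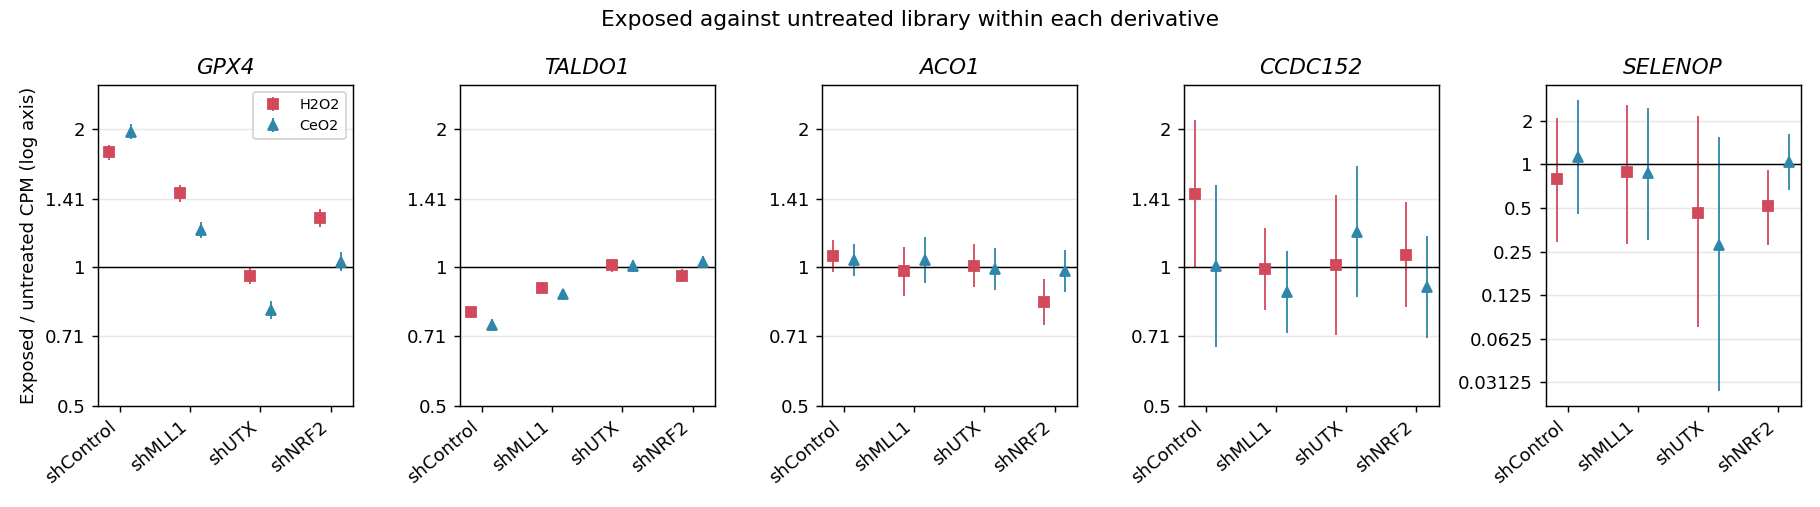
Level in CPM on plain totals after exposure, divided by the untreated level of the same derivative, for each gene (log axis). Bars give the exact 95% interval for counting error only. H2O2 is shown as squares and CeO2 as triangles, and the SELENOP panel has a wider axis. GPX4 ratios reach 1.98 in shControl and lie below 1 in shUTX, TALDO1 ratios lie at 0.798 and 0.749 in shControl and near 1 in shUTX and shNRF2, and ACO1 ratios stay between 0.842 and 1.06.

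The untreated shControl library stood apart in the level of short transcripts. The deviation of log2 CPM from each gene's mean was smoothed against the length of the longest transcript over 285 coding genes. This trend was 0.53 at the length of GPX4 (longest transcript 1184 bases) in that library and -0.13 to 0.16 in the other 11. At the length of TALDO1 (1346 bases) it was 0.50 there and -0.12 to 0.15 elsewhere. With this trend removed, an alternative added after seeing the data, the changed response of GPX4 was -1.57 in shUTX (edgeR adjusted p = 1.94e-05), -1.24 in shNRF2 (adjusted p = 5.66e-05) and -0.88 in shMLL1 (adjusted p = 0.0177). The lower response of GPX4 was therefore larger without the trend than with it. The trend was fitted on 285 coding genes, while these p-values are adjusted over all 10800 entries.

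TALDO1, the transaldolase gene, moved the other way in the shControl cells. Its level there was 1629 CPM untreated, 1299.9 with H2O2 and 1219.9 with CeO2, and in shMLL1 cells 1494, 1351 and 1305 CPM. It was 1291, 1306 and 1301 CPM in shUTX cells and 1129.6, 1084 and 1161 CPM in shNRF2 cells. All 3 shNRF2 libraries lay below the other 9. The mean of shNRF2 was 1125 ± 38.4 CPM, against 1299.1 ± 7.79 in shUTX, the next in order, without overlap, while shMLL1 (1383 ± 98.3), shControl (1383 ± 217) and shUTX overlapped. The fitted log2 difference of shNRF2 from shControl was -0.34 ± 0.10, and that of shMLL1 and shUTX -0.03 ± 0.10 and -0.06 ± 0.10. Without untreated shControl the 3 values were -0.19, 0.12 and 0.086, and with the trend in transcript length removed -0.22, 0.039 and 0.13, so that the sign of the last pair turned. The value of shUTX was also 0.023 without untreated shUTX. Without CeO2-exposed shControl they were -0.45, -0.14 and -0.17.

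Across derivatives TALDO1 did not pass the threshold with H2O2 (-0.20 ± 0.09, adjusted p = 0.243, lower in 3 of 4 derivatives) or with CeO2 (-0.22 ± 0.09, adjusted p = 0.252, lower in 2 of 4). Derivatives are counted here by ratios on plain totals, not on the TMM scale of the fit. In shUTX the H2O2 ratio was 1.01 (0.979 to 1.05 for counting error), too close to 1 to settle its direction. Without untreated shControl the fitted changes were -0.093 and -0.11, and without CeO2-exposed shControl that with CeO2 was -0.13. The changed response was 0.55 ± 0.11 in shUTX (edgeR adjusted p = 0.00315), 0.53 ± 0.11 in shNRF2 (adjusted p = 0.00342) and 0.30 ± 0.11 in shMLL1 (adjusted p = 0.196). Without H2O2-exposed shControl that of shMLL1 passed the threshold (0.37, edgeR adjusted p = 0.0268). With the length trend removed the responses in shUTX, shNRF2 and shMLL1 became -0.05 (adjusted p = 0.826), -0.12 (adjusted p = 0.547) and -0.14 (adjusted p = 0.617), so that for TALDO1 the sign turned and both calls were lost. The exposure changes with H2O2 and CeO2 were then 3.92e-05 and -0.026.

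For the iron regulator ACO1 the shControl libraries were separated from all others, and exposure made little difference. The level was 164, 174 and 171 CPM in shControl cells (untreated, H2O2 and CeO2), and 119.5, 121 and 118 CPM in shUTX cells. It was 101, 84.9 and 99.1 CPM in shNRF2 cells and 84.8, 83.3 and 88.2 CPM in shMLL1 cells. The ranges did not overlap between shControl and shUTX or between shUTX and shNRF2, whereas those of shNRF2 and shMLL1 did. The log2 differences from shControl were -1.02 ± 0.08 in shMLL1, -0.88 ± 0.08 in shNRF2 and -0.48 ± 0.08 in shUTX. With the length trend removed, that of shMLL1 was -0.78.

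ACO1 changed by -0.11 ± 0.07 with H2O2 (log2, edgeR adjusted p = 0.426) and by -0.06 ± 0.07 with CeO2 (adjusted p = 0.706). Of its 8 ratios of exposed to untreated level on plain totals, only that of H2O2 in shNRF2 had a counting interval that excludes 1 (0.842, upper bound 0.946). The shControl ratios (1.06 with H2O2 and 1.04 with CeO2) would be lower on the TMM scale of the fit, where intervals were not computed. No changed response passed the threshold, with log2 differences of 0.04, 0.09 and -0.03 in shMLL1, shUTX and shNRF2. The next gene that passed the filter, RIGI, an RNA sensor of the antiviral response encoded on the opposite strand with its 3′ end 936 bp beyond that of ACO1, differed from shControl by 0.40, -0.92 and 0.29 in the same order, and so did not follow ACO1.

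CCDC152 ran opposite to ACO1, lowest in shControl cells and highest in shMLL1 cells. Its level was 7.35, 10.6 and 7.42 CPM in shControl (52, 78 and 51 counts) and 12.1, 12.2 and 14.4 CPM in shUTX. It was 18.0, 19.2 and 16.3 CPM in shNRF2 and 30.2, 29.996 and 26.7 CPM in shMLL1 (215, 170 and 173 counts). None of the 4 ranges overlapped. The log2 differences from shControl were 1.75 ± 0.16 in shMLL1, 1.03 ± 0.16 in shNRF2 and 0.65 ± 0.17 in shUTX. Over the 12 libraries log2 levels of CCDC152 and ACO1 had a Pearson r of -0.93, the strongest of the 10 pairs of members, over points that share hairpins and libraries.

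SELENOP, the selenium carrier, was near the limit of counting in all but the shNRF2 cells. Its counts were 11, 9 and 12 in shControl cells (untreated, H2O2 and CeO2), 10, 7 and 8 in shMLL1 cells, 6, 3 and 2 in shUTX cells and 41, 18 and 47 in shNRF2 cells. In CPM the shNRF2 cells had 5.90, 3.03 and 6.13, and the other 9 libraries 0.307 to 1.75. Every shNRF2 library was above every other library. The log2 difference of shNRF2 from shControl was 1.67 ± 0.32, that of shUTX -1.23 ± 0.46 (-0.79 without CeO2-exposed shUTX) and that of shMLL1 -0.26 ± 0.39 (-0.43 without H2O2-exposed shMLL1 and -0.16 without CeO2-exposed shMLL1). With so few counts only the shNRF2 libraries give a ratio with a usable interval: 0.513 with H2O2 (0.278 to 0.914) and 1.04 with CeO2 (0.668 to 1.62).

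SELENOP took 15.0% of the counts of both genes in shControl (exact binomial 95% interval 10.5% to 20.5%), 22.6% in shNRF2 (18.9% to 26.6%), 4.29% in shMLL1 (2.79% to 6.27%) and 4.56% in shUTX (2.30% to 8.02%), with the 3 libraries of a line summed. Those intervals cover counting error only, and single libraries of shNRF2 ran from 13.6% to 27.3%. The intervals of shControl and of shNRF2 overlap each other and lie apart from those of shMLL1 and shUTX. In shMLL1 the CCDC152 level was the highest while SELENOP was not raised; in shNRF2 both were above shControl. Reads that cross from one gene to the other could add to either count, and their part was not tested.

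**Figure D3:**
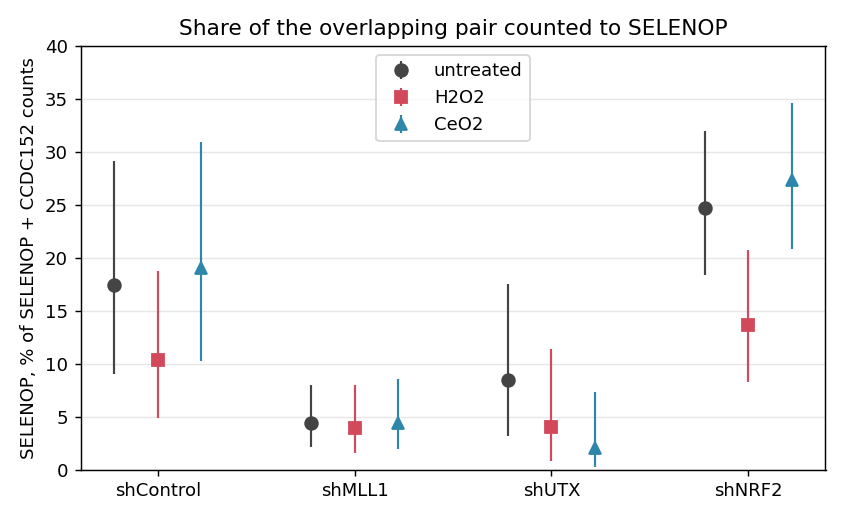
Share of the summed SELENOP and CCDC152 counts assigned to SELENOP (vertical axis, percent) in each library, by hairpin and treatment, with exact binomial 95% intervals for counting error only. The shares lie between 13.6% and 27.3% in shNRF2 and between 2.08% and 8.45% in shMLL1 and shUTX.

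Neither SELENOP nor CCDC152 passed the threshold with an exposure. For H2O2 the log2 change of SELENOP was -0.73 ± 0.33 (edgeR adjusted p = 0.246) and that of CCDC152 0.07 ± 0.14 (adjusted p = 0.806). For CeO2 they were -0.20 ± 0.30 (adjusted p = 0.835) and -0.10 ± 0.14 (adjusted p = 0.731). The SELENOP ratio with H2O2 was below 1 in 4 of 4 derivatives, but its counting interval excluded 1 in shNRF2 only. In shControl, shMLL1 and shUTX it rested on 9 against 11, 7 against 10 and 3 against 6 counts, too few to settle the direction. Without H2O2-exposed shNRF2 the SELENOP change with H2O2 was -0.45, and without CeO2-exposed shNRF2 that with CeO2 was -0.51. Their changed responses had standard errors of 0.32 or more and none passed the threshold.

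Counted over the members, 0 of 5 were called with H2O2, where 0% of 10800 entries were, 0 of 5 with CeO2 against 0.0185%, and 0 of 5 for H2O2 against CeO2 directly, where 0.037% were called and the lowest adjusted p of a member was 0.884 (edgeR, SELENOP). At an unadjusted p under 0.05, 2102 entries differed with H2O2, 1888 with CeO2 and 670 between the agents. DESeq2 called 152, 44 and 21 entries, and limma-voom called 0 with either agent. The members' median log2 change was -0.11 with H2O2 and -0.10 with CeO2, beside 0.02 and 0.00 over all entries and -0.080 and -0.090 over the 412 entries of the readable stretches.

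Against shControl 2 of 5 members passed the threshold in shMLL1 (CCDC152 higher, ACO1 lower), where 12.2% of all entries did, and the same 2 in shUTX, where 26.3% did. In shNRF2 it was 4 of 5 (SELENOP and CCDC152 higher, GPX4 and ACO1 lower), where 5.33% did. Among the 412 entries of the readable stretches the shares were 29.1%, 39.8% and 9.47%. The members were proposed with such differences known, so nothing is read from these counts. Of these calls, CCDC152 in shUTX was lost without CeO2-exposed shUTX (0.46) and in a fit of the compared lines alone (0.64). SELENOP in shNRF2 was lost without CeO2-exposed shNRF2 (1.43), and GPX4 in shNRF2 with the length trend removed (-0.78). Other settings gained calls. GPX4 was called in shMLL1 and shUTX without the filter (-0.45 and -0.36), without untreated shControl (-0.64 and -0.56) and without untreated shUTX (-0.44 and -0.56). In shMLL1 it was also called with DESeq2 (-0.44) and in a fit of the compared lines alone (-0.43). TALDO1 was called in shNRF2 without the filter (-0.33) and without CeO2-exposed shControl (-0.45). The median of the members was -0.26 in shMLL1, -0.34 in shUTX and -0.34 in shNRF2, beside 0.01, 0.00 and 0.01 over all entries tested and -0.093, -0.056 and -0.072 in the readable stretches. All 3 comparisons share the shControl libraries.

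Compared directly, CCDC152 was lower in shUTX than in shMLL1 (log2 -1.10 ± 0.15) and in shNRF2 than in shMLL1 (-0.72 ± 0.15), and SELENOP was higher in shNRF2 than in shMLL1 (1.93 ± 0.33) and than in shUTX (2.90 ± 0.39). ACO1 was higher in shUTX than in shMLL1 (0.54 ± 0.08) and lower in shNRF2 than in shUTX (-0.40 ± 0.08), and 0.14 ± 0.08 apart in shNRF2 and shMLL1. With the length trend removed, shUTX minus shMLL1 was 0.29 and shNRF2 minus shMLL1 turned to -0.13. TALDO1 in shNRF2 lay -0.31 ± 0.10 from shMLL1 and -0.28 ± 0.10 from shUTX.

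Of 119 genes in lists of selenoproteins, selenium machinery, glutathione and lipid peroxide defence, iron, aconitase and pentose phosphate or NADPH enzymes and NRF2 targets, only 6 lie in the readable stretches: 4 of the members, and NNT and NADK2, with 2 of 25 selenoproteins and 1 of 20 NRF2 targets among them. NNT, the mitochondrial transhydrogenase that makes NADPH from NADH, ranged from 198 to 288 CPM. It was lower than shControl in shMLL1 (log2 -0.31 ± 0.08), while the differences were -0.04 ± 0.08 in shUTX and -0.01 ± 0.08 in shNRF2. NADK2, the mitochondrial NAD kinase that makes NADP, ranged from 91.4 to 190 CPM. It was lower in shMLL1 (-0.48 ± 0.10), higher in shUTX (0.38 ± 0.10) and -0.02 ± 0.10 from shControl in shNRF2. As for the members, these differences between hairpins are descriptions without a test. Neither gene passed the threshold with an exposure or in a changed response.

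The gene most like GPX4 over the 12 libraries, among 275 coding genes of the readable stretches with at least 10 CPM, was SBNO2 (Pearson r of log2 levels 0.85), followed by ELAVL2 (0.80) and AP3D1 (0.72). SBNO2, a helicase-family transcriptional coregulator, is encoded on the opposite strand and has its 3′ end 845 bp beyond the end of GPX4. Its level was 342, 455 and 556 CPM in shControl (untreated, H2O2 and CeO2), and 319.6, 303 and 242 CPM in shNRF2. In shMLL1 it was 354, 488 and 412 CPM. The shUTX levels were 411, 443 and 437 CPM, higher with either agent, where GPX4 was lower (778, 747 and 629 CPM). The changed response of SBNO2 was -0.31 ± 0.17 in shUTX and -0.63 ± 0.17 in shNRF2, beside -0.93 and -0.54 for GPX4. Its log2 difference of shNRF2 from shControl was -0.67 ± 0.13, beside -0.86 for GPX4, and POLR2E, the gene before GPX4, stood at -0.10 ± 0.09. In shMLL1 and shUTX the differences of SBNO2 were -0.13 and -0.03, beside -0.43 and -0.34 for GPX4. These correlations are descriptions over libraries that share hairpins and depth.

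**Figure D4:**
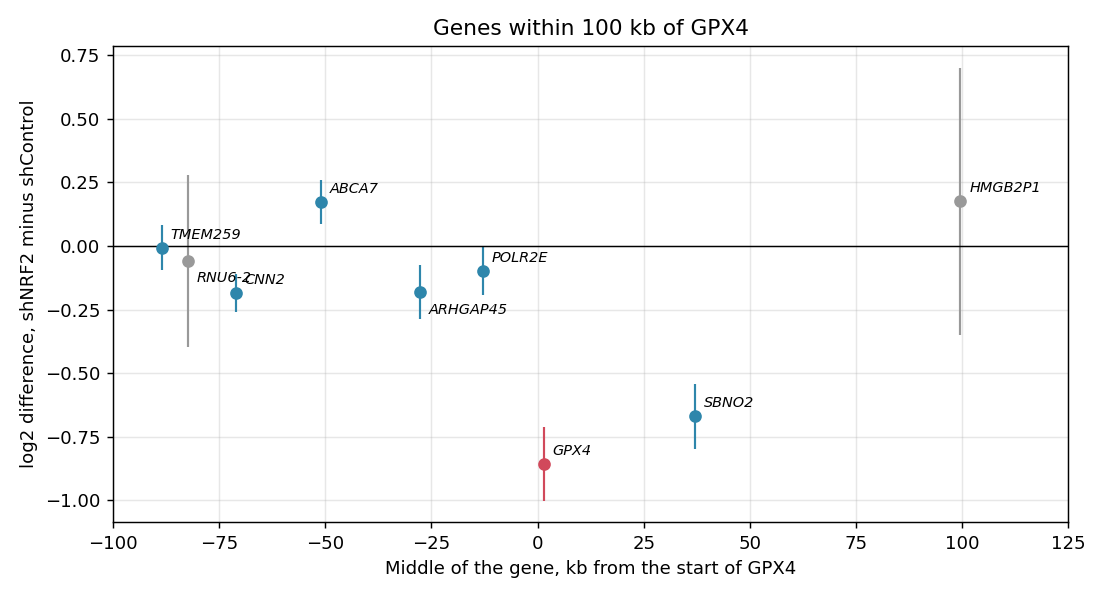
Log2 difference of shNRF2 from shControl (points, with SE bars) for each gene past the filter whose middle lies within 100 kb of the start of GPX4, by distance in kb; GPX4 is red, other coding genes blue and non-coding entries grey. GPX4 (-0.86) and SBNO2 (-0.67) lie below the other entries, which range from -0.19 to 0.18.

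For TALDO1 the most similar genes were PSMD13 (r = 0.85), UBE2R2 (0.84) and RPLP2 (0.83), of which PSMD13 and RPLP2 lie in the same stretch of chromosome 11. For ACO1 they were BASP1 (0.80), FAM219A (0.80) and HMGCS1 (0.75), for CCDC152 SCAMP4 (0.85), PTGER4 (0.82) and PHRF1 (0.82), and for SELENOP TJP3 (0.90), AQP3 (0.86) and FYB1 (0.83). AQP3, the glycerol and water channel of the epidermis, averaged 369 CPM in shNRF2 and 229 CPM in shControl, and TJP3, a tight junction protein, 54.4 and 33.2 CPM. PTGER4, a prostaglandin E2 receptor, averaged 165 CPM in shMLL1, where CCDC152 was highest, and 46.1 CPM in shControl. Genes picked by likeness over the same libraries tend to be high in the same lines, so nothing more is read from these levels.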

How the data were processed

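RNA-seq counts of 12 HaCaT libraries were analysed, 1 for each of 4 hairpins and 3 treatments. The submitters' processing notes list HTSeq 0.11.1, SAMtools 1.12, HISAT2 2.2.1 and Trimmomatic 0.39, and the build GRCh38; the sources used here do not give settings, annotation or strand use. The authors deposited unnormalized whole-number counts by Ensembl identifier in 2 tables. Untreated libraries are in both, differ in 1 cell and were taken from the H2O2 table.

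Identifiers were named from the reference tables (61399 of 61498) and placed by GENCODE 29 (58298). Panel genes of at least 30 CPM (median at least 150 CPM, at least 3 genes a stretch) marked readable stretches by a hidden Markov model. CPM levels use plain totals, and so do the ratios of exposed to untreated level and the counts of derivatives that were higher or lower. Counts were fitted with edgeR 4.0.16 (TMM, quasi-likelihood, two-sided, Benjamini-Hochberg over 10800 entries, threshold 0.05), with derivative and treatment as terms (6 residual degrees of freedom); a second model had a term for each knockdown under either agent. Adjusted p-values are edgeR's unless another tool is named. Named genes are the 5 members, list genes in readable stretches, the 3 most similar coding genes and the nearest genes. The members, lists and tests were chosen with earlier results of these data known. Counting intervals are exact and cover counting error only. Alternatives were RLE scaling, other filters, DESeq2 1.42.0, limma-voom (limma 3.58.1), only the libraries compared, the other table's untreated counts, and each library left out. Removal of a transcript-length trend was added later. The code was tested on simulated counts.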

Additional observations from a re-analysis of the deposited data

Results flagged for a closer look

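A difference in exposure response between a silenced line and shControl, by the test of the difference itself, picked out 4 results, all of which rest on the single untreated shControl library. That test takes in no variation between untreated libraries. The response of GPX4 differed by -0.93 (log2) in shUTX and by -0.54 in shNRF2. The response of TALDO1 differed by 0.55 in shUTX and by 0.53 in shNRF2. The medians over the 412 tested entries of the readable stretches were also above 0, at 0.232 and 0.225. RPLP2 and PSMD13 differed by 0.84 and 0.48 in shUTX and by 0.87 and 0.46 in shNRF2. Both were named above for their likeness to TALDO1 over these same libraries, so nothing is read from their similar responses. The TALDO1 values fell to -0.05 and -0.12 once the trend with transcript length was removed, and the GPX4 values grew to -1.57 and -1.24.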

How the results depend on the processing

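Counts of called entries depended on the settings. For H2O2 they were 651 without the filter, 152 with DESeq2 and 3 with the compared libraries only. For CeO2 they were 543, 44 and 0, and 0 with limma-voom or a filter at 5 CPM. For H2O2 against CeO2 they were 105, 21 and 120, and 8 without the length trend. With the compared libraries only, 1426 entries were called for shUTX and 154 for shNRF2 against shControl (907 for shNRF2 without the filter), 2955 for shUTX against shMLL1, 1991 for shNRF2 against shMLL1 and 4351 for shNRF2 against shUTX. The changed response called 218 in shMLL1 without the filter and 33 at 5 CPM, and DESeq2 called 676 in shUTX and 686 in shNRF2.

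With 1 library left out, calls ranged from 0 to 43 for H2O2, 0 to 29 for CeO2 and 0 to 94 between the agents. They ranged from 667 to 1941 for shMLL1, 1931 to 3088 for shUTX and 257 to 829 for shNRF2 against shControl. Directly they ranged from 1170 to 2989 for shUTX against shMLL1, 598 to 2252 for shNRF2 against shMLL1 and 1652 to 3604 for shNRF2 against shUTX. For the changed response they ranged from 4 to 679 in shMLL1, 816 to 2111 in shUTX and 1317 to 2330 in shNRF2. The changed response of a line could not be estimated without its own untreated library or that of shControl. The cause of these shifts was not tested.

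Without the length trend TALDO1 had 3.92e-05 with H2O2 and changed responses of -0.14, -0.052 and -0.12 in shMLL1, shUTX and shNRF2, CCDC152 had -0.22 in shUTX and ACO1 0.10 in shNRF2; ACO1 in shNRF2 against shMLL1 turned to -0.13 and TALDO1 in shUTX and shMLL1 against shControl to 0.13 and 0.039. CCDC152 in shUTX was -0.022 without the filter, and SELENOP in shMLL1 0.00446 with DESeq2. With 1 library left out, CCDC152 ranged from -0.018 to 0.15 with H2O2 and TALDO1 from -0.065 to 0.075 between the agents. Changed responses ranged from -0.33 to 0.35 for SELENOP and -0.035 to 0.12 for ACO1 in shMLL1, from -0.24 to 0.29 for CCDC152 in shUTX, and in shNRF2 from -0.64 to 0.23 for SELENOP, -0.36 to 0.10 for CCDC152 and -0.14 to 0.072 for ACO1.

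GPX4 with H2O2 was called without the filter (0.34, edgeR adjusted p = 0.000452). Per kilobase of longest transcript, GPX4 had 617 CPM and TALDO1 964 CPM, in the same order. SELENOP was not tested at 5 CPM, and its counts limit what can be seen. No paired analysis was possible because no replicate number links libraries (1 library a combination), beyond the derivative and treatment terms of the fits, which already compare exposures within derivatives.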
